A study of Mus musculus with 10 samples.

Results

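The genes described here are those of the growth hormone (GH) receptor, of insulin-like growth factor 1 (IGF1) and of the proteins that bind or receive it: Ghr, Igf1, Igfals, Igf1r, Igf2r, Igfbp3, Igfbp4, Igfbp5, Igfbp6 and Igfbp7. They were chosen by gene symbol, with earlier results of these data known, and are 10 of the 24454 genes counted in brown adipose tissue (BAT). All 10 passed the filter on low counts, as did 13568 genes in all. RNA-Seq was performed on BAT of 10 male mice on a C57BL/6N background, which were 2 months old and fed ad libitum, with 1 library per mouse. All 10 samples are labelled as basal. In the 5 Stat5Adipoq mice both floxed Stat5a and Stat5b were deleted by a Cre recombinase under the adiponectin promoter, which is active in adipocytes, so that the other cells of the tissue retain both genes. The 5 controls are labelled as wild type, and the methods describe controls as littermates that carry the floxed alleles without Adipoq-Cre.

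GH binds its receptor, a cytokine receptor without kinase activity of its own, and the associated kinase JAK2 phosphorylates STAT5, which then enters the nucleus and activates target genes. Igf1 is the best known of these targets: the liver supplies most of the circulating hormone, and many tissues, adipose tissue among them, make IGF1 that acts locally. In the extracellular space IGF1 is held by IGF-binding proteins (IGFBPs), which prolong its half-life or keep it from its receptor, and the acid-labile subunit encoded by Igfals joins IGF1 and IGFBP3 or IGFBP5 into a long-lived complex in the blood.

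STAT5 recognises the palindromic sequence TTCNNNGAA, which was therefore searched for first. The windows searched ran from 250 bases before to 50 bases after annotated starts of the 10 genes. RefSeq sequence of GRCm38 was at hand for all 10 genes, in 13 windows. The only windows of Igf1, Igfbp3 and Igfbp4 lie inside these genes, so that their outermost starts were not searched. The motif, which is its own reverse complement, was found in 2 of the 13 windows (15.4%), and in 2726 of 32851 windows of all genes (8.3%). Both were windows of Igfals, the gene of the acid-labile subunit. They are shown, with the motif in capitals, because they are the only windows of the 10 genes that hold it.
Igfals at chr17:24877594-24877893, plus strand: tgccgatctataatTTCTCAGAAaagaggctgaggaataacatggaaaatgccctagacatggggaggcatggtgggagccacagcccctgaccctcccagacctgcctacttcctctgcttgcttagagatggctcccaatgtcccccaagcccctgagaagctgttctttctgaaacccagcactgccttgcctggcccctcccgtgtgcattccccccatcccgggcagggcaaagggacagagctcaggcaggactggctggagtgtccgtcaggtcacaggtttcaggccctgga
Igfals at chr17:24877981-24878280, plus strand: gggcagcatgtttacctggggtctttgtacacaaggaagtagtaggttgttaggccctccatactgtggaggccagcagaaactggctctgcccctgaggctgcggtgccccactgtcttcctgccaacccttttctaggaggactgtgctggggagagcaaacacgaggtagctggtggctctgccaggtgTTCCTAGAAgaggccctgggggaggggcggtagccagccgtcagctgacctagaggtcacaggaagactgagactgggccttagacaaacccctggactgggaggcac
The motif starts 236 bases before the annotated start in the upper sequence and 58 bases before it in the lower. The third Igfals window did not hold it. The windows of Ghr, Igf1 and Igfbp4, which are described below as lower in Stat5Adipoq BAT, did not hold it either. They are shown for comparison, except for a further window of the receptor gene Ghr. Capitals in the Igfbp4 window mark TATAAA, the TATA box sequence, which lies 28 bases before the start and which, searched on both strands as TATAAA or TTTATA, occurs in 13.6% of all windows.
Ghr at chr15:3583303-3583602, minus strand: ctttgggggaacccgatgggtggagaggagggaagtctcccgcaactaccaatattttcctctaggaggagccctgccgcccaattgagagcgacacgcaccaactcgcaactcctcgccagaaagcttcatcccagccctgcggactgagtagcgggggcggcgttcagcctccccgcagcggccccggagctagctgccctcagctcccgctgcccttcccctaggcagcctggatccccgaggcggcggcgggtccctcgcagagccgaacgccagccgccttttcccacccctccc
Igf1 at chr10:87860861-87861160, plus strand: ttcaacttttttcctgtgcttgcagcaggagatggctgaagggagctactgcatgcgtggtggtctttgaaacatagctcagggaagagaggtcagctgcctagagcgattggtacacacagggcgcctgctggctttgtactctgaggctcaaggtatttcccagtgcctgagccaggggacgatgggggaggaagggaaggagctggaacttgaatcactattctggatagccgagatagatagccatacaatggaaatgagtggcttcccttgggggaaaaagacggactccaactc
Igfbp4 at chr11:99040994-99041293, plus strand: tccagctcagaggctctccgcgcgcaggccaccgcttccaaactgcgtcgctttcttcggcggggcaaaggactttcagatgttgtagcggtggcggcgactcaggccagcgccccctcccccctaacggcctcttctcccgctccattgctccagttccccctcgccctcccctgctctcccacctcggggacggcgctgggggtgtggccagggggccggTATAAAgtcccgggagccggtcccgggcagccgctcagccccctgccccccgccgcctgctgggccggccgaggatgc
These windows also differed in composition. The Ghr window shown had a GC content of 67% with 23 CpG dinucleotides, the Igfbp4 window 71.3% with 27, and the Igf1 window 52.3% with 6. The Ghr window not shown, at chr15:3581793-3582092, had 52.3% with 8 and held TTTATA 188 bases before its start. A match of letters does not show that STAT5 binds there, and a window without one says nothing about more distant sites.

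The deleted genes were examined before the members. Levels are given in CPM, the count of a gene scaled to the size of its library by the TMM method. Stat5a mRNA lay between 86.9 and 130 CPM in controls and between 15.8 and 20.7 CPM in Stat5Adipoq BAT. Stat5b lay between 76.6 and 91.9 CPM and between 21.0 and 22.9 CPM. All 5 Stat5Adipoq libraries were below all controls for both genes. The libraries held 8488129 to 19514904 counts on genes, and the lowest value of any member in any library was 20 counts. The tissue label was checked with 13 brown adipocyte markers. All 13 were detected, with Ucp1, the uncoupling protein of brown fat, between 5402 and 13831 CPM in controls and between 7843 and 12661 CPM in Stat5Adipoq BAT. A pair of libraries stood apart. Control 3 held skeletal muscle markers at a summed 4761 CPM, against 5.91 to 386 CPM in the other controls and 3.01 to 53.7 CPM in Stat5Adipoq BAT. Stat5Adipoq 1 was nearer to the controls than its group was in several genes given below, although its Stat5b, at 21.0 CPM, was as low as in the rest of its group. Its Stat5a was at 20.7 CPM, against 15.8 to 16.6 CPM in the other Stat5Adipoq libraries. Results for the 10 genes and for named marker genes that rest on these libraries are given with and without 1 or both of them.

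Of the 10 genes, 4 fell and 1 rose in Stat5Adipoq BAT at an adjusted p below 0.05. Ghr, Igf1, Igfbp4 and Igfbp7 were lower, and Igfbp5 was higher. Over all 13568 genes the same test of edgeR called 2.71%, of which 1.31% were lower and 1.40% higher. For 4 of the 10 genes, Ghr, Igf2r, Igfbp5 and Igfbp7, the 5 libraries of one genotype all lay above the 5 of the other, which was the case for 4.39% of all genes. DESeq2 called 7 of the 10, adding Igfals and Igf2r, and 4.86% of all genes. The median log2 fold change of the 10 genes was -0.35, with 6 of 10 below 0, while that of all tested genes was -0.0028, with 50.8% below 0. Because the 10 genes were chosen with earlier results of these data known, their shares beside those of all genes are a description. The tissue was sequenced as a whole, so fewer cells of a type and less RNA per cell cannot be told apart in any of these values.

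**Figure D1:**
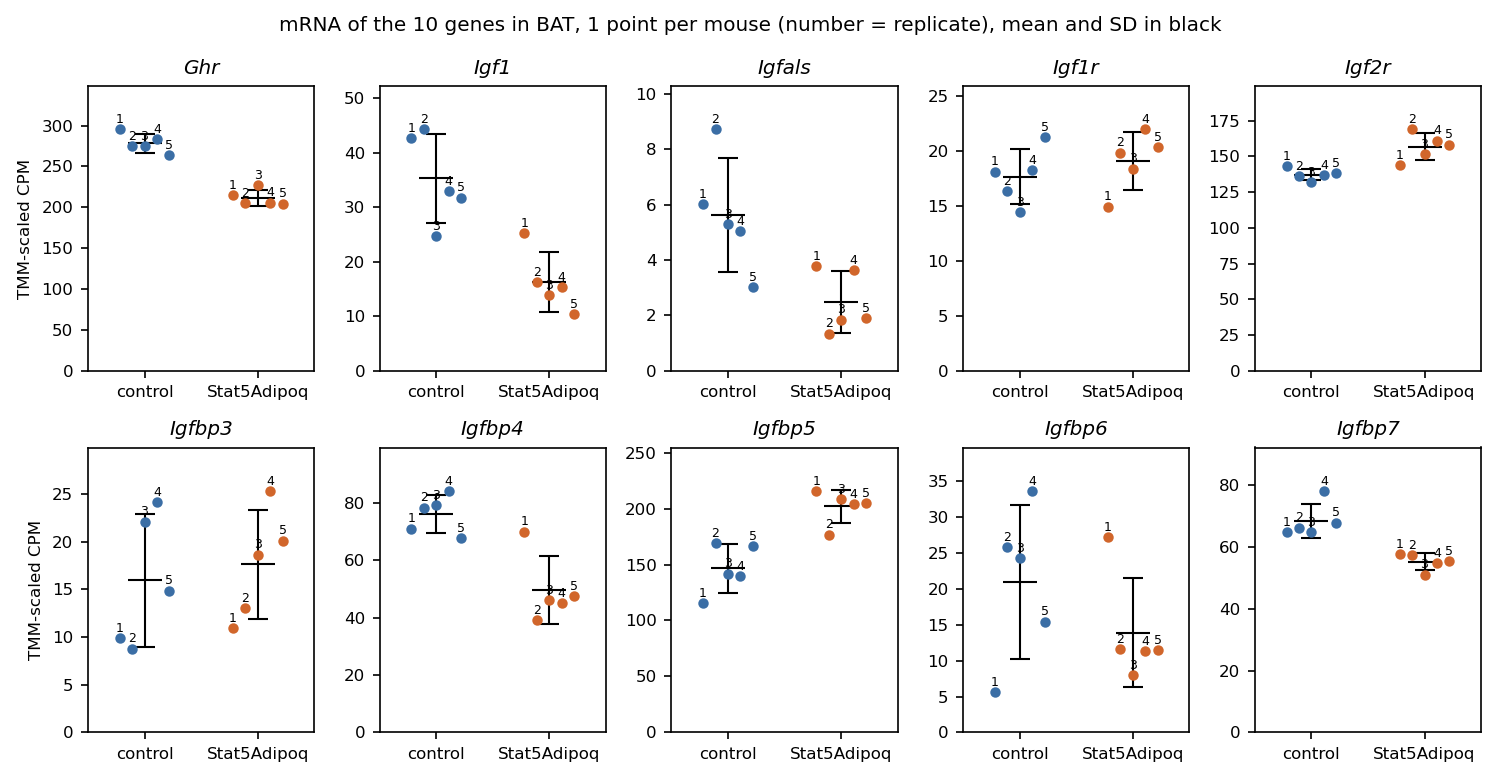
CPM of each of the 10 genes in each library, with control and Stat5Adipoq libraries apart, 1 point per mouse numbered by replicate, and mean and SD in black; each panel has its own axis from 0. The genotypes do not overlap for Ghr, Igf2r, Igfbp5 and Igfbp7, and Igf1 overlaps through control 3 and Stat5Adipoq 1 alone.

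Ghr, the receptor that receives GH at the cell surface, was lower in Stat5Adipoq BAT. Its mRNA was at 295, 274, 275, 284 and 263 CPM in controls 1 to 5, and at 215, 205, 227, 206 and 205 CPM in Stat5Adipoq 1 to 5. The lowest control lay well above the highest Stat5Adipoq library, and the libraries of a group were close to each other. The group means were 278 ± 11.8 CPM and 211 ± 9.73 CPM (SD, n = 5 each), so that Ghr fell by 24.0%. The log2 fold change was -0.40 with a standard error of 0.05 and a 95% confidence interval from -0.51 to -0.28 (adjusted p = 0.0023, edgeR). Permuting the genotypes over the libraries, as an exact two-sided test on log2 CPM, gave p = 0.0079, the smallest that 5 libraries against 5 allow. Ghr was past the threshold in all 18 alternative analyses, with adjusted p between 8.3e-12 and 0.013. Leaving out single libraries moved its log2 fold change only between -0.42 and -0.37. The gene lies at chr15:3317755-3583352 on the minus strand and no other annotated gene shares its exon bases.

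Igf1, the growth factor that GH induces through STAT5, showed the deepest fall among the called genes of the group. It was at 42.7, 44.3, 24.8, 33.0 and 31.8 CPM in controls 1 to 5. In Stat5Adipoq 1 to 5 it was at 25.2, 16.3, 13.9, 15.3 and 10.5 CPM. The genotypes overlapped by a narrow margin, since Stat5Adipoq 1, the highest of its group, reached the level of control 3, the lowest of the controls. The means of 35.3 ± 8.13 CPM and 16.2 ± 5.49 CPM (SD, n = 5 each) correspond to a fall by 54.0%. The log2 fold change was -1.12 (standard error 0.21, 95% confidence interval -1.58 to -0.66, adjusted p = 0.017, edgeR). The exact permutation test gave p = 0.016.

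Both libraries that carry the overlap of Igf1 are those noted above. Without control 3 the log2 fold change of Igf1 was -1.22 (adjusted p = 0.0070), without Stat5Adipoq 1 it was -1.34 (adjusted p = 0.0028), and without both it was -1.43 (adjusted p = 6.9e-04). The call was lost without Stat5Adipoq 3 (adjusted p = 0.057) or Stat5Adipoq 4 (adjusted p = 0.0503), with the direction kept. Liver markers are of interest here because the liver makes IGF1. Their summed level was 60.7 to 272 CPM in controls and 30.5 to 84.8 CPM in Stat5Adipoq BAT, and all 10 had negative log2 fold changes, of which 1 was called. Without control 3 only 3 of the 10 were high enough to be tested, with 1 below 0 and none called by edgeR, and 1 below an unadjusted p of 0.05. The gene called with all libraries was Cyp2e1, a cytochrome P450 that adipocytes also express, with a log2 fold change of -1.67 (adjusted p = 0.037). It was -1.51 without control 3 (adjusted p = 0.053), -2.12 without Stat5Adipoq 1 (adjusted p = 0.0042) and -1.96 without both (adjusted p = 0.0035, all edgeR). Alb, which encodes serum albumin and defines hepatocytes, had 322 counts in control 3 and 1 to 25 counts in the other libraries. The part of liver tissue in the result for Igf1 was not tested. Igf1 lies at chr10:87858265-87937047 on the plus strand.

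Igfals was low in BAT and its fall did not pass the test. It was at 6.03, 8.71, 5.29, 5.06 and 3.01 CPM in controls 1 to 5 and at 3.77, 1.35, 1.85, 3.64 and 1.92 CPM in Stat5Adipoq 1 to 5. The groups overlapped because control 5 lay below Stat5Adipoq 1 and Stat5Adipoq 4. With means of 5.62 ± 2.06 CPM and 2.504 ± 1.12 CPM (SD, n = 5 each), the log2 fold change was -1.19 (standard error 0.32, adjusted p = 0.082, edgeR). The exact permutation test gave p = 0.024 before any adjustment. Igfals passed the threshold with DESeq2 (adjusted p = 0.0095) and without control 5 (adjusted p = 0.044), but not without Stat5Adipoq 1 (log2 fold change -1.40, adjusted p = 0.053). Its value rests on 20 to 100 counts per library, on average fewer than any other of the 10 genes. It is mainly a product of hepatocytes, and the part of liver tissue in its level was not tested.

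**Figure D2:**
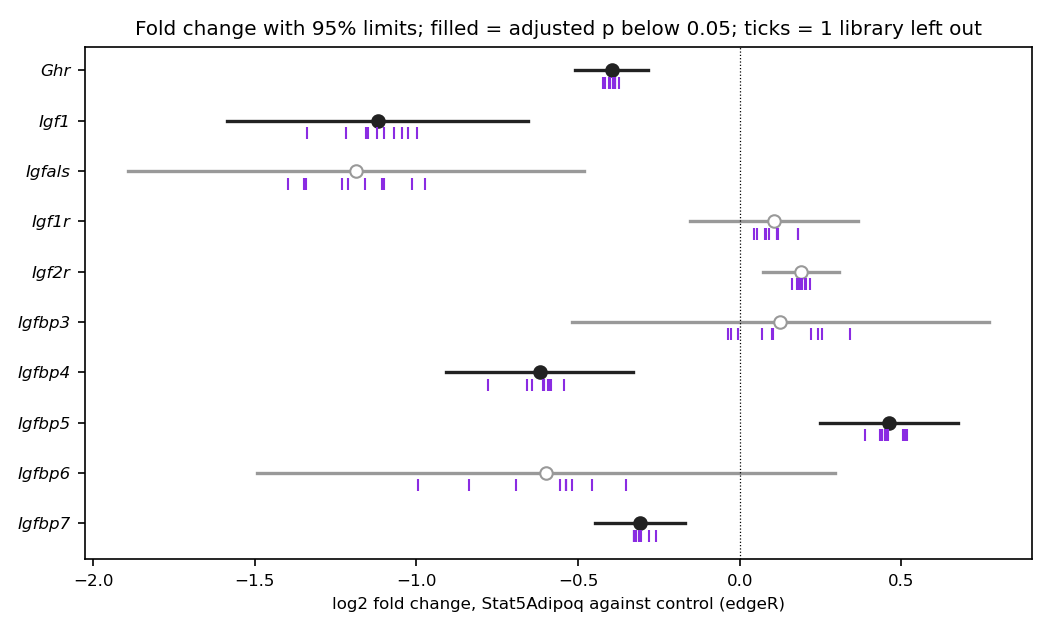
Log2 fold change of each of the 10 genes, Stat5Adipoq against control, with the 95% confidence interval as a bar; called genes are filled, and ticks give the value with 1 library left out. Ghr (-0.40), Igf1 (-1.12), Igfbp4 (-0.62) and Igfbp7 (-0.31) lie below 0 and Igfbp5 (0.46) above it, while the intervals of Igfbp3 and Igfbp6 are wide.

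The receptors for the growth factors themselves did not pass the test. Igf1r encodes the tyrosine kinase that transmits the signals of IGF1. It was at 18.1, 16.3, 14.4, 18.2 and 21.2 CPM in controls 1 to 5 and at 14.9, 19.8, 18.4, 21.9 and 20.3 CPM in Stat5Adipoq 1 to 5. The groups overlapped over most of their range. The log2 fold change was 0.11 with a 95% confidence interval from -0.15 to 0.37 (adjusted p = 0.75, edgeR).

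Igf2r encodes the mannose 6-phosphate receptor, which clears IGF2 from the cell surface and carries newly made enzymes to lysosomes. Its mRNA was at 143.3, 136.2, 131.9, 137.1 and 138.2 CPM in controls 1 to 5. It was at 143.8, 168.9, 151.7, 161.1 and 158.2 CPM in Stat5Adipoq 1 to 5. All Stat5Adipoq libraries were above all controls, although Stat5Adipoq 1 exceeded the highest control only slightly. The means were 137 ± 4.10 CPM and 157 ± 9.51 CPM (SD, n = 5 each), and the log2 fold change was 0.19 (standard error 0.05, 95% confidence interval 0.07 to 0.31). With an adjusted p of 0.095 the difference missed the threshold in edgeR. The exact permutation test gave the smallest possible p of 0.0079, before adjustment, and DESeq2 gave an adjusted p of 0.024. Without Stat5Adipoq 1 the log2 fold change was 0.22 (adjusted p = 0.056, edgeR).

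Among the binding proteins, Igfbp5 rose and Igfbp4 and Igfbp7 fell. Igfbp5 encodes a protein that binds both IGFs and attaches to extracellular matrix. It was at 115, 169, 142, 140 and 167 CPM in controls 1 to 5 and at 216, 177, 208, 204 and 205 CPM in Stat5Adipoq 1 to 5. The lowest Stat5Adipoq library lay above the highest control. The means of 147 ± 22.2 CPM and 202 ± 14.8 CPM (SD, n = 5 each) correspond to a log2 fold change of 0.46 (95% confidence interval 0.25 to 0.68, adjusted p = 0.029, edgeR). Here Stat5Adipoq 1 was the library farthest from the controls. The call was lost without control 4 or without any of Stat5Adipoq 1, 3, 4 and 5, with adjusted p between 0.059 and 0.079, and without control 3 and Stat5Adipoq 1 together (adjusted p = 0.066), while the log2 fold change stayed between 0.39 and 0.52 whichever single library was left out.

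Igfbp4, whose product holds IGF1 away from its receptor until a protease releases it, was lower in Stat5Adipoq BAT. It was at 71.0, 78.4, 79.4, 84.2 and 67.7 CPM in controls 1 to 5 and at 70.0, 39.2, 46.2, 45.2 and 47.6 CPM in Stat5Adipoq 1 to 5. In 4 of the 5 Stat5Adipoq libraries the level was far below all controls, and in Stat5Adipoq 1 it was within the control range. The means were 76.1 ± 6.67 CPM and 49.6 ± 11.8 CPM (SD, n = 5 each). Its log2 fold change was -0.62 (standard error 0.13, 95% confidence interval -0.91 to -0.33, adjusted p = 0.029, edgeR). Without Stat5Adipoq 1 the log2 fold change was -0.78 (adjusted p = 0.0010). Leaving out control 1, 2 or 4 or any of Stat5Adipoq 2, 3, 4 and 5 lost the call, with adjusted p between 0.0504 and 0.087. Of the 50-base words in its longest transcript, 2% also occur in other genes.

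Igfbp7, whose product is found around blood vessels and binds IGFs only weakly, was modestly lower. It was at 64.7, 66.2, 64.7, 78.0 and 67.8 CPM in controls 1 to 5 and at 57.6, 57.4, 51.0, 54.6 and 55.3 CPM in Stat5Adipoq 1 to 5. The groups did not overlap, and Igfbp7 fell by 19.3%. The log2 fold change was -0.31 (standard error 0.06, 95% confidence interval -0.45 to -0.17, adjusted p = 0.026, edgeR). The call was lost without Stat5Adipoq 3, 4 or 5, with adjusted p between 0.065 and 0.073. Polr2b overlaps 7.03% of its exon bases on the opposite strand, and whether counting used the strand is not given in the sources used here.

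Since Igfbp7 is made by cells of the vessel wall, markers of such cells are given beside it. The 10 endothelial markers summed to 924 to 1142 CPM in controls and 977 to 1175 CPM in Stat5Adipoq BAT, with a median log2 fold change of 0.09. edgeR called none of them, 2 were below an unadjusted p of 0.05, and neither DESeq2 nor limma-voom called any. The lowest p was that of Emcn, with a log2 fold change of 0.22 (adjusted p = 0.31). The 9 markers of pericytes and smooth muscle summed to 947 to 1026 CPM and 950 to 1104 CPM, and again none was called by edgeR, DESeq2 or limma-voom, with 0 below an unadjusted p of 0.05. Rgs5 had the lowest p among them, with a log2 fold change of 0.15 (adjusted p = 0.36). The part of vessel cells in the fall of Igfbp7 was not tested.

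Igfbp3 and Igfbp6 did not pass the test, and both varied widely between mice of a group. Igfbp3, the main carrier of IGF1 in blood, was at 9.86, 8.80, 22.1, 24.2 and 14.9 CPM in controls 1 to 5 and at 10.98, 13.0, 18.7, 25.3 and 20.1 CPM in Stat5Adipoq 1 to 5. Each group spread over more than its own lowest value, and the ranges covered each other. Its log2 fold change was 0.13 with a 95% confidence interval from -0.52 to 0.77 (adjusted p = 0.90, edgeR), and its sign turned when control 1, control 2 or Stat5Adipoq 4 was left out. Igfbp6, whose product prefers IGF2, was at 5.65, 25.9, 24.3, 33.7 and 15.4 CPM in controls 1 to 5 and at 27.2, 11.6, 8.03, 11.4 and 11.4 CPM in Stat5Adipoq 1 to 5. Control 1 was low and Stat5Adipoq 1 was high. The log2 fold change was -0.60 (95% confidence interval -1.49 to 0.29, adjusted p = 0.55), and without Stat5Adipoq 1 it was -0.99 (adjusted p = 0.24). The 10 fibroblast markers, given because fibroblasts make much IGFBP6, summed to 1045 to 2059 CPM in controls and 1028 to 2010 CPM in Stat5Adipoq BAT. Their sum was lowest in control 1 and highest in control 4 among controls, as was Igfbp6. In Stat5Adipoq 1 it was 2010 CPM, against 1028 to 1420 CPM in the rest of the group, so that it was high in the library where Igfbp6 was high, and the part of fibroblasts in the values of Igfbp6 was not tested. With all libraries none of the 10 fibroblast markers was called by edgeR, DESeq2 or limma-voom and 0 were below an unadjusted p of 0.05. The lowest p was that of Dpp4 (log2 fold change -0.60, adjusted p = 0.44). Their median log2 fold change was -0.19, with 8 below 0. Without Stat5Adipoq 1 it was -0.34, with 9 below 0, 4 below an unadjusted p of 0.05 in edgeR and 0 called.

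Within its group Stat5Adipoq 1 was thus the library nearest to the controls for Igf1, Igfals, Igf2r, Igfbp4, Igfbp6 and Igfbp7, if only by a small margin for Igfals and Igfbp7, but not for Ghr or Igfbp5. It also differed from its group in 2 of the 4 white adipocyte markers tested, Retn and Hoxc8. Retn, which encodes the hormone resistin of white adipocytes, was at 104, 77.1, 85.7, 88.6 and 74.5 CPM in controls 1 to 5. It was at 58.7, 19.9, 34.5, 22.6 and 13.0 CPM in Stat5Adipoq 1 to 5. Retn fell in Stat5Adipoq BAT (log2 fold change -1.53, adjusted p = 0.023, edgeR), and by more without Stat5Adipoq 1 (-1.94, adjusted p = 0.0016). It was 1 of 4 white adipocyte markers called by edgeR, while DESeq2 and limma-voom called 2. Hoxc8, a homeobox gene of posterior body regions that is used to mark white fat, was at 7.03 to 13.3 CPM in controls, at 9.05 CPM in Stat5Adipoq 1 and at 2.40 to 3.53 CPM in the other Stat5Adipoq libraries (log2 fold change -1.24, adjusted p = 0.088 with edgeR and 0.0073 with DESeq2). Without Stat5Adipoq 1 it was -1.79 (adjusted p = 0.0016, edgeR). Lep, the gene of leptin, went the other way without passing the test (log2 fold change 0.62, adjusted p = 0.40), with 10.6 to 34.6 CPM in controls and 15.5 to 40.1 CPM in Stat5Adipoq BAT, Stat5Adipoq 1 being the highest. Without Stat5Adipoq 1 the log2 fold change of Lep was 0.46 (adjusted p = 0.59, edgeR). Nnat, the gene of neuronatin, was at 3.13 to 10.9 CPM and 3.53 to 6.87 CPM (log2 fold change -0.17, adjusted p = 0.87). The summed white adipocyte markers were 109 to 145 CPM in controls and 37.3 to 115 CPM in Stat5Adipoq BAT, the highest of these being Stat5Adipoq 1. Retn made up most of this sum in every control, so that the sum largely repeats the result for Retn. Hoxc9, a further marker of white fat, had too few counts to be tested. The summed fibroblast markers, given above, were also highest in Stat5Adipoq 1 within its group. The part of white adipocytes or of fibroblasts in the results for Igf1 and Igfbp4 was not tested. The level of Adipoq, which both kinds of adipocytes express, was 878 to 1111 CPM in controls and 910 to 1078 CPM in Stat5Adipoq BAT.

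**Figure D3:**
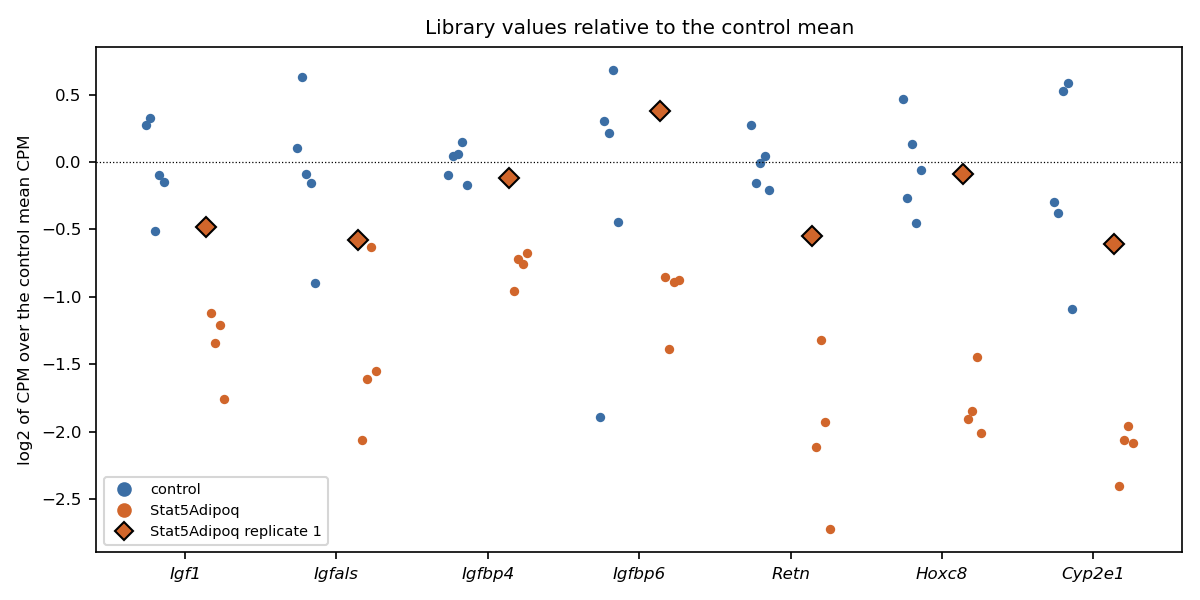
Level of Igf1, Igfals, Igfbp4 and Igfbp6 and of Retn, Hoxc8 and Cyp2e1 in each library, as the log2 of CPM over the control mean, with 1 point per mouse and a diamond for Stat5Adipoq 1. Stat5Adipoq 1 lies in the control range for Igfbp4 (70.0 CPM) and above the other Stat5Adipoq libraries for Igf1 (25.2 CPM) and Retn (58.7 CPM).

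The levels of the genes can be set against each other only per length of exon, as CPM per kilobase. In controls Igfbp7 was highest at 56.5 ± 4.62 CPM per kilobase (SD, n = 5), followed by Ghr at 30.7 ± 1.31, Igfbp5 at 24.4 ± 3.70, Igfbp6 at 18.9 ± 9.66, Igfbp4 at 17.2 ± 1.51 and Igf2r at 14.8 ± 0.441. Far lower were Igfbp3 at 5.10 ± 2.23 CPM per kilobase, Igf1 at 3.56 ± 0.821, Igfals at 1.77 ± 0.650 and Igf1r at 1.05 ± 0.149. Neighbours in this order did not overlap between Igfbp7 and Ghr, between Ghr and Igfbp5, and between Igf2r and Igfbp3, and the other neighbours overlapped. In Stat5Adipoq BAT the order of the means differed in 3 places. Ghr and Igfbp5 changed places. Igfbp5 was at 33.6 ± 2.47 and Ghr at 23.4 ± 1.07 CPM per kilobase, without overlap between the libraries of this genotype. Igf2r, at 16.8 ± 1.02 CPM per kilobase, stood above Igfbp6 at 12.5 ± 6.83 and Igfbp4 at 11.2 ± 2.68, with overlap between Igf2r and both. Igf1r, at 1.14 ± 0.157, stood above Igfals at 0.791 ± 0.353, again with overlap, and Igf1 was at 1.64 ± 0.554 CPM per kilobase.

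**Figure D4:**
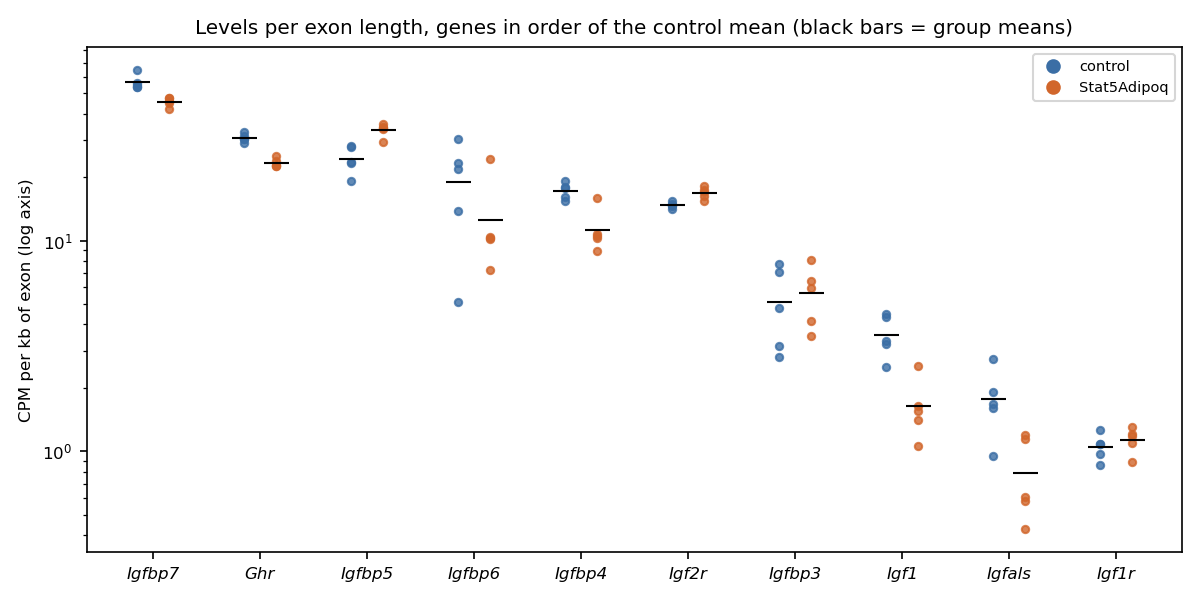
Level of each gene in CPM per kilobase of exon (log axis) in the 5 control and 5 Stat5Adipoq libraries, ordered by the control mean, with 1 point per mouse and black bars for group means. Ghr lies above Igfbp5 in controls (30.7 against 24.4) and below it in Stat5Adipoq BAT (23.4 against 33.6).

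The 5 binding proteins were also summed. The sum of Igfbp3, Igfbp4, Igfbp5, Igfbp6 and Igfbp7 was 122 ± 17.2 CPM per kilobase in controls (range 97.0 to 145) and 109 ± 11.1 in Stat5Adipoq BAT (range 100.3 to 127), with overlapping libraries. Igfbp5 made up 20.1% ± 2.92 of this sum in controls and 31.1% ± 2.45 in Stat5Adipoq BAT, and the ranges of 16.1 to 23.5% and 28.2 to 34.5% did not overlap. Igfbp4 made up 14.3% ± 1.44 and 10.2% ± 1.36, also without overlap. Its level did overlap, at 15.3 to 19.1 CPM per kilobase in controls and 8.87 to 15.9 in Stat5Adipoq BAT. The separation of its shares thus depends on the other genes of the sum as well. The shares of Igfbp7 (46.7% ± 5.06 and 42.2% ± 3.51), Igfbp6 (14.8% ± 6.29 and 11.2% ± 4.66) and Igfbp3 (4.11% ± 1.44 and 5.27% ± 1.85) overlapped. All are means ± SD over 5 libraries, and they describe mRNA, not the proteins.

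The rest of the family and its regulators were then described by lists. Of 6 further IGF ligands, binding proteins and receptors, only Igf2 and Insr were high enough to be tested. Igfbp1, Igfbp2, Igfbpl1 and Insrr had at most 9 counts in any library. Neither of the tested genes was called by edgeR, DESeq2 or limma-voom, and 0 were below an unadjusted p of 0.05. Igf2, the other IGF, differed by 0.04 on the log2 scale (standard error 0.19, adjusted p = 0.96), and Insr, the insulin receptor, by 0.00. Of 7 genes for proteases that cut IGFBPs and their inhibitors 4 were tested and none was called by edgeR, DESeq2 or limma-voom, with 0 below an unadjusted p of 0.05. The lowest p was that of Adam12, a metalloprotease, with a log2 fold change of -0.53 (adjusted p = 0.39). Of the 7 genes for mannose 6-phosphate sorting, the route that Igf2r serves, none was called by the 3 tools and 1 was below an unadjusted p of 0.05. This was Gga3, an adaptor that binds the receptor tail, with a log2 fold change of 0.25 (adjusted p = 0.24).

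Among 13 tested genes of proximal GH receptor signalling, 3 were lower and 0 higher. These were the deleted genes Stat5a (log2 fold change -2.62) and Stat5b (-1.94) and Cish (-2.06), a feedback inhibitor that STAT5 induces. Cish was at 30.4 to 41.4 CPM in controls and at 9.73, 17.1, 3.23, 9.47 and 3.12 CPM in Stat5Adipoq 1 to 5, without overlap. Jak2, the kinase bound to the receptor, had a log2 fold change of 0.09 (adjusted p = 0.72), and Socs2, a further feedback inhibitor of GH signalling, of -0.10 (adjusted p = 0.90). The median of the list was -0.068. DESeq2 and limma-voom also called 3 of the 13. Below an unadjusted p of 0.05 in edgeR were 5, the 3 called genes, Stat3 (log2 fold change -0.16) and Sirpa (0.27). The promoter window of Cish, searched in the same way as those above, held TTCNNNGAA at 2 positions. The windows of Stat5a, Stat5b and Pik3r1 held none, but they reach only 250 bases before the starts. The paper searched much farther upstream and reports putative STAT5 sites of this sequence in the promoter region of Pik3r1.

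Among 22 genes of IGF1 receptor and insulin signalling, 1 was lower and 0 higher, and the median log2 fold change of 0.0021 was close to that of all genes. Pik3r1 encodes the regulatory subunit p85 of phosphoinositide 3-kinase. It fell from 193 ± 50.7 CPM to 90.7 ± 22.3 CPM (SD, n = 5 each), a log2 fold change of -1.09 (adjusted p = 0.011, edgeR). Pik3cb, a catalytic subunit of the kinase, had a log2 fold change of -0.30 (adjusted p = 0.067 with edgeR and 0.024 with DESeq2). DESeq2 called these 2 of the 22, and limma-voom called 1.

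**Figure D5:**
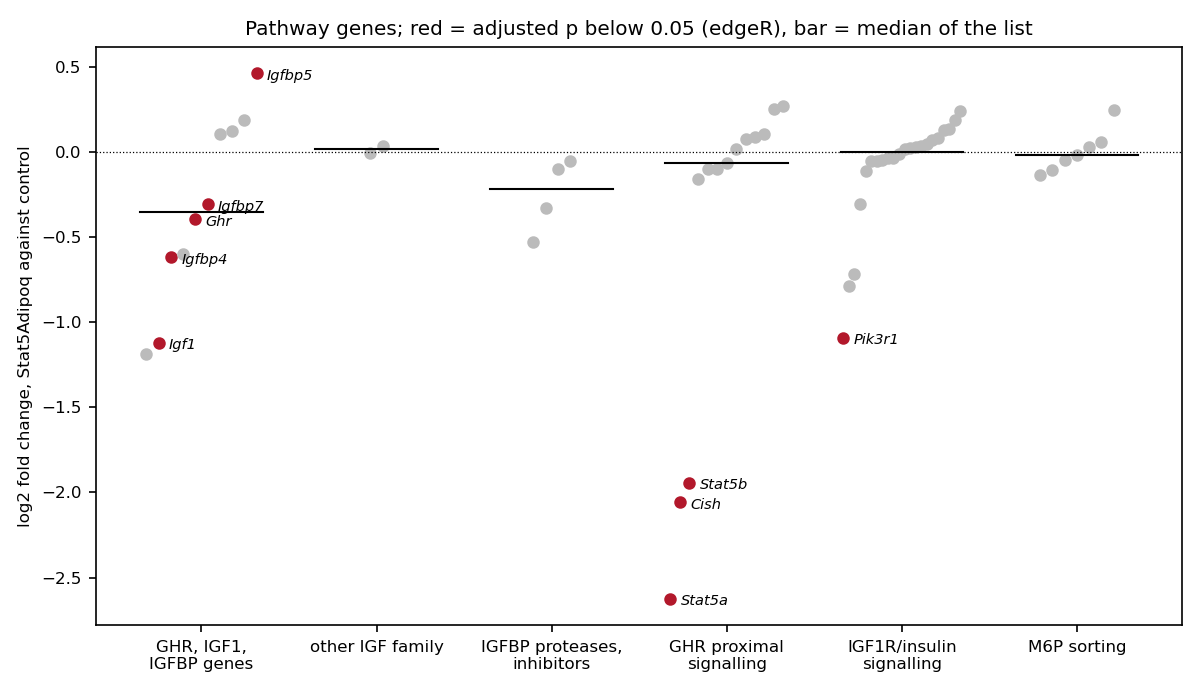
Log2 fold change of each tested gene by list, Stat5Adipoq against control, with called genes in red and the list median as a bar. The GH receptor list holds 3 called genes, all lower, and the IGF1 receptor list 1, Pik3r1 (-1.09).

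The remaining marker lists complete the account of the tissue. Among the 13 brown adipocyte markers only Cox7a1, a subunit of cytochrome c oxidase, was called (log2 fold change 0.29, adjusted p = 0.040, edgeR). Below an unadjusted p of 0.05 were 3, which were Cox7a1, Cidea (log2 fold change -0.20) and Pparg (0.19). Without control 3 and Stat5Adipoq 1 together 6 were below it. The marker sums were 18643 to 29807 CPM in controls and 20492 to 26037 CPM in Stat5Adipoq BAT, on average mostly from Ucp1 and Fabp4. Of 8 macrophage markers none was called by edgeR, DESeq2 or limma-voom and 0 were below an unadjusted p of 0.05. They summed to 128 to 174 CPM and 101 to 142 CPM, with the lowest p for Cd163 (log2 fold change -0.40, adjusted p = 0.38). Macrophages make IGF1 too, and their part in the fall of Igf1 was not tested. None of the 10 skeletal muscle markers was called by edgeR or limma-voom, although all 10 were below an unadjusted p of 0.05 and DESeq2 called 3. Myh1 had the lowest p, with a log2 fold change of -5.66 (adjusted p = 0.093), which was -4.16 without control 3 (adjusted p = 0.15). The median of the list was -5.62 with all libraries and -2.37 without control 3, where 8 were below an unadjusted p of 0.05. Without control 3 and Stat5Adipoq 1 together 4 of the 10 IGF system genes were called, Ghr, Igf1, Igfbp4 and Igfbp7. In that fit 476 of all 13268 tested genes were called.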

How the data were processed

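BAT of 5 control and 5 Stat5Adipoq mice was profiled. The authors aligned single reads of 50 bases to GRCm38 with STAR 2.5.0b, counted them over exons with featureCounts 1.5.0-p1 and deposited the counts per gene without normalization, which are the values used here. A deposited table supplied gene symbols, and its DESeq2 1.16.1 columns (fold changes, p-values) were left aside. Genes with a row sum of size factor normalized counts above 45 were kept, 13568 of 24454. Genotypes were compared with edgeR 4.0.16 (quasi-likelihood F test, TMM, two-sided, Benjamini-Hochberg over all tested genes, threshold 0.05). CPM are TMM scaled. For each member the log2 CPM were also permuted exactly over all 252 assignments of libraries to genotypes (two-sided). Nothing in the labels says how libraries were batched.

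Alternatives were DESeq2 1.42.0, limma-voom (limma 3.58.1), other scalings and filters, a block for the replicate number, and each library left out. Leaving out control 3 and Stat5Adipoq 1 together was added after the data were seen. The procedure was tested on simulated data. The members and lists were chosen with earlier results of these data known, so list counts are a description. Named genes are all 10 members and, from each list, the called genes or else the gene with the lowest p. Further genes were picked with their values known. Positions and start windows are from RefSeq for GRCm38, matched by Entrez identifier. Exon lengths (all annotated exons of a gene merged), overlaps and shared words are from GENCODE for the same build. No protein sequence was analysed here, and the lists leave out an item that is not reported here.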

Additional observations from a re-analysis of the deposited data

Results flagged for a closer look

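In 7 of 38 groups of 5 libraries that were examined, a single library stood apart from the rest by Dixon's test, where chance alone gives about 1.9. Of the IGF system genes, Igfbp4 in Stat5Adipoq 1 was at 70.0 CPM, against 39.2 to 47.6 CPM in the other libraries of its group. Igfbp6 in Stat5Adipoq 1 was at 27.2 CPM, against 8.03 to 11.6 CPM. The summed liver markers in Stat5Adipoq 1 were at 84.8 CPM, against 30.5 to 33.7 CPM, and 82.0 CPM of this was Cyp2e1. Igfbp7 in control 4 was at 78.0 CPM, against 64.7 to 67.8 CPM in the other controls. Control 4 also had the most counts, 19.5 M against 8.49 to 10.9 M, and the highest macrophage markers, 174 CPM against 128 to 140 CPM. The summed skeletal muscle markers were at 4761 CPM in control 3, against 5.91 to 386 CPM in the other controls.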

How the results depend on the processing

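Among the 13568 genes 368 were called, and 5 of the 10 IGF system genes. DESeq2 called 660 genes and 7 members. With single libraries left out, 185 (without Stat5Adipoq 3) to 443 (without control 3) genes were called, and 1 to 6 members. Ghr was called in every one of these 10 fits. Without Stat5Adipoq 3 or Stat5Adipoq 4 it was the only member called, without Stat5Adipoq 5 there were 2 called, without control 4 there were 3, and without control 5 Igfals was added. A fit with a replicate block called 273 genes and 2 members, Ghr and Igf1. Whether equal replicate numbers pair the mice is not given in the labels. Deviations from the group means in same-numbered libraries correlated between -0.23 and 0.088 over 13568 genes. By these correlations 2 of 5 controls and 0 of 5 Stat5Adipoq libraries were closest to their own number. Weak correlation over all genes does not settle whether the mice were paired. The log2 fold change of Igfbp3 lay between -0.035 and 0.34 with single libraries left out, and turned negative without control 1 (-0.0052), control 2 (-0.028) or Stat5Adipoq 4 (-0.035). The cause of these changes was not tested. Without control 3 and Stat5Adipoq 1 together 476 genes and 4 members were called. Igfals had the lowest counts of the members, 20 to 100 per library.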

Other observations

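The genes that varied most like Ghr and Igf1 between mice of the same genotype were sought among 10152 genes with at least 50 counts on average. The log2 CPM of the 10 libraries was used after subtraction of the genotype means, and the correlations are a description over libraries that share their depth and composition. For Ghr they were Ndufb9 (Pearson r 0.94, Spearman rho 0.90), Nbeal1 (0.91 and 0.68) and 1700052K11Rik (0.88 and 0.84). For Igf1 they were Prnp (0.93 and 0.88), Qars (0.92 and 0.85) and Urm1 (0.91 and 0.96). None of these genes belongs to the lists described above. They were picked for the highest of very many correlations over 10 libraries, and how high chance alone reaches was not tested.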
